A study of Homo sapiens with 6 samples.

Results

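Centromere and kinetochore proteins form the platform on each chromosome that binds spindle microtubules during mitosis. The 31 genes described here encode the centromeric nucleosome and its loading factors, the constitutive inner layer, the microtubule-binding outer layer and the fibrous corona. They were chosen by gene name (CASC5 in the table is KNL1), and all 31 were found among the 63299 genes of the table. Names matched on a chromosome gave 1 entry each, and further entries for SKA1 and SPC25 on unplaced scaffolds held 0 reads. All 31 passed the filter on low counts.

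The study measured RNA in LNCaP cells, an androgen-dependent human prostate cancer line, by RNA sequencing. Knockdown libraries (n = 3) came from cells given doxycycline, in which a short hairpin RNA lowers MEP50 (gene name WDR77), the cofactor of the arginine methyltransferase PRMT5. Control libraries (n = 3) came from cells without doxycycline and are labelled as having no knockdown. The drug was given to every knockdown culture and to no control culture, so drug and knockdown cannot be told apart. The sources used here give no dose, duration, hairpin sequence or clone, and the 3 libraries of a group are called biological replicates. Single libraries are written K1, K2 and K3 for knockdown and C1, C2 and C3 for control where their removal is described.

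As background, the histone variant CENP-A marks the centromere and is loaded by the chaperone HJURP after the MIS18 complex has licensed the site. CENP-C, CENP-T and the other subunits of the constitutive centromere network then recruit the KNL1, MIS12 and NDC80 complexes, which hold microtubules together with the SKA complex. Many of these genes are transcribed mainly in cycling cells, late in the cell cycle, so their transcripts serve as proliferation markers in tumours. In bulk RNA, fewer cycling cells and less transcript per cell cannot be told apart.

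The knockdown libraries held 18568002 to 36001219 counts and the control libraries 27509105 to 36234784. Reads per member ranged from 60, for SPC25 in knockdown replicate 3, to 9935, for CENPF in control replicate 1. The target WDR77 averaged 13.9 ± 1.16 CPM (counts scaled to library size) in knockdown cells and 44.4 ± 6.73 CPM in control cells (SD, n = 3 each; adjusted p = 0.00131, edgeR quasi-likelihood test). PRMT5 averaged 145 ± 3.73 CPM in knockdown cells and 209.6 ± 15.96 CPM in control cells (adjusted p = 0.0268, edgeR). All 7 LNCaP markers checked had reads in every library, with sums of 3776 to 4375 CPM in knockdown libraries and 6517 to 7856 CPM in control libraries. The 10 markers of leukocytes, stroma, endothelium, basal and neuroendocrine cells summed to 12.3 to 15.0 CPM in knockdown libraries and 9.23 to 18.2 CPM in control libraries, most of it from COL1A1, and KRT5 was at 0 in all 6. Their part in the results below was not tested.

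Centromere and kinetochore transcripts were lower in knockdown cells, with the lowest median changes in the microtubule-binding SKA and NDC80 complexes. Log2 fold changes, knockdown minus control, were below 0 for all 31 members and ranged from -1.51 for CENPK to -0.03 for CENPC. With upper quartile scaling CENPC and CENPP, which had the changes nearest 0, were above 0. The median was -0.84, against 0.0023 over all 21101 tested genes. At an adjusted p under 0.05 (edgeR, adjusted over all tested genes), 10 members were lower and 0 higher. Over all tested genes 4.88% were called lower and 2.72% higher.

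The replicate number on the labels tied knockdown and control libraries together, and calls of single members depended on it. With the number as a block, edgeR called 25 members lower and 0 higher, where 14.9% of all genes were called lower and 11.2% higher. The fit with the block has only 2 residual degrees of freedom, against 4 without it. It was not repeated with libraries left out, so the stability of calls made with the block only was not tested. Every knockdown library was below every control library for 18 of 31 members, which held for 17% of all tested genes. Besides the 25 members called with the block, the other 6, CENPC, CENPP, CENPQ, CENPT, CENPL and MIS12, were called in neither fit. Without the block, 1 of the 10 calls was left after removing K2, 2 after removing K3 or C1, and 6 after removing C3. CENPK was the 1 call that held whichever library was left out.

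**Figure D1:**
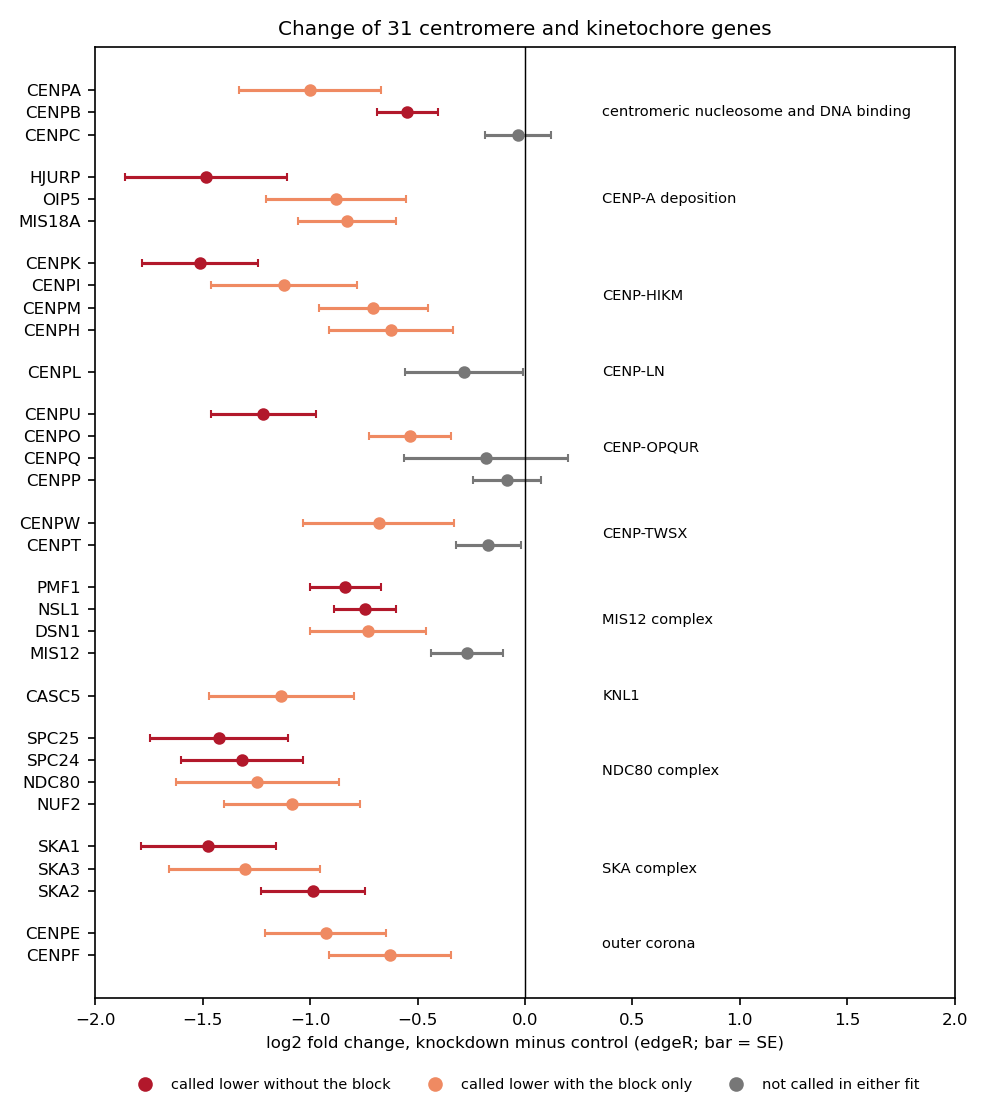
Log2 fold change of each of the 31 members (horizontal axis, knockdown minus control, points with the SE of the edgeR fit as bars), grouped by complex from the centromeric nucleosome at the top to the outer corona at the bottom. Red marks the 10 members called lower without the block, orange those called lower with the block only, and grey the 6 called in neither fit.

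Promoters of 8 members are shown here so that lowered members can be read beside members that were not called. The words marked in them are known from promoters of cell cycle genes, and the CCAAT box also from many other promoters. The first 4 belong to members that were called without the block, CENPA and NDC80 to members called with the block only, and CENPC and CENPQ to members called in neither fit. Sequences are from RefSeq on GRCh38.p14, a patch release of the hg38 assembly of the counts, and each runs 5′ to 3′ over 130 bases before the transcript start and the first 29 bases from it on. Capitals mark TTTGAA or TTCGAA (the cell cycle genes homology region, CHR), TTCGCGC or TTGGCGC (E2F-like words) and CCAAT (the box bound by NF-Y), each on either strand, so that ATTGG is CCAAT on the other strand. Other forms of these words were not searched, so unmarked letters do not show that no such site is present. Words outside the printed stretch are not shown. CENPQ has an E2F-like word there, at bases 34 to 40 after the start. Farther upstream HJURP, SPC24 and CENPA have CCAAT boxes and SPC25 has a CHR word.
CENPK promoter, chr5:65563140-65563298, minus strand: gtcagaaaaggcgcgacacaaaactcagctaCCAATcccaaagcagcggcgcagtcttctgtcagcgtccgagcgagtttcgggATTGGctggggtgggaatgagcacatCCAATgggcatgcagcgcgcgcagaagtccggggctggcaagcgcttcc
HJURP promoter, chr2:233854507-233854665, minus strand: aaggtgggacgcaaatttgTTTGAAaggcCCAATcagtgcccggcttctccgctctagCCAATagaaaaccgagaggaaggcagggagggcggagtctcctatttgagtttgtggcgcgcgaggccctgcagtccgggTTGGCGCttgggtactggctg
SPC24 promoter, chr19:11155754-11155912, minus strand: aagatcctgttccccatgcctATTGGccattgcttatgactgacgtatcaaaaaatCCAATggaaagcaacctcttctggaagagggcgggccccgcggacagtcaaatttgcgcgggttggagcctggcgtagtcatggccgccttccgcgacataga
SPC25 promoter, chr2:168890402-168890560, minus strand: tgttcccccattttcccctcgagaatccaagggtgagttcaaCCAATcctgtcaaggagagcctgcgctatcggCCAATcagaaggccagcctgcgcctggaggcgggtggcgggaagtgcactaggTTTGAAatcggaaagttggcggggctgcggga
CENPA promoter, chr2:26785926-26786084, plus strand: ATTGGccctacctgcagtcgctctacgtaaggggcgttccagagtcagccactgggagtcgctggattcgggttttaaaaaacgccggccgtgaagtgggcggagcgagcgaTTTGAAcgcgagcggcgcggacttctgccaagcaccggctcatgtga
NDC80 promoter, chr18:2571427-2571585, plus strand: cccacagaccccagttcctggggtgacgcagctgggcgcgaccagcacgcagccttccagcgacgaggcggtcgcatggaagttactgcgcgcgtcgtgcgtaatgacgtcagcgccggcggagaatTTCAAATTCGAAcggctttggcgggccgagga
CENPC promoter, chr4:67545475-67545633, minus strand: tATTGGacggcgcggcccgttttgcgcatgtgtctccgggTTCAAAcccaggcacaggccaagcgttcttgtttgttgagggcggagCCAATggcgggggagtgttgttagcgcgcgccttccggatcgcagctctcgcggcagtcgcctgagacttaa
CENPQ promoter, chr6:49463240-49463398, plus strand: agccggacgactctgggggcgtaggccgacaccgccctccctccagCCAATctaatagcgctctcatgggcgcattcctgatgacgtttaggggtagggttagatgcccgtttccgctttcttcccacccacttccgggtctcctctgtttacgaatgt

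Of the 31 members, 26 have RefSeq windows, 29 windows in all, which reach from 250 bases before to 50 bases after a start. CASC5, CENPH, CENPL, CENPM and MIS18A have none in the table used. A CHR word was found in 12 of these 26 members (46.2%), against 19.5% of all 27305 genes with a window. Here and below, all genes with a window were taken, whether or not they were expressed or tested in these libraries. The CCAAT box was found in 15 members (57.7%, against 39.7% of all genes) and an E2F-like word in 5 (19.2%, against 6.1%). In 1 member, PMF1, matches of different motifs overlapped.

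The CHR words lay close to the transcript start in most of these members. In 10 members, 38.5% of those with a window, a match began within 50 bases of the start, which was so for 6.24% of all genes; this distance was chosen after the positions were seen. These 10 were CENPA, CENPF, CENPO, CENPW, NDC80, NUF2, OIP5, SKA1, SKA3 and SPC25. NDC80 has 2 adjacent CHR words across its start, as printed above. By call, a CHR word was in 3 of 10 members called without the block, in 8 of 11 called with the block only, and in 1 of 5 called in neither fit. That last one is CENPC, where the word lies farther upstream on the other strand. For the CCAAT box the same split was 7 of 10, 4 of 11 and 4 of 5, and for the E2F-like words 3 of 10, 1 of 11 and 1 of 5. Differences between these groups of members were not tested. These matches describe the letters of the windows, and no binding was measured.

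**Figure D2:**
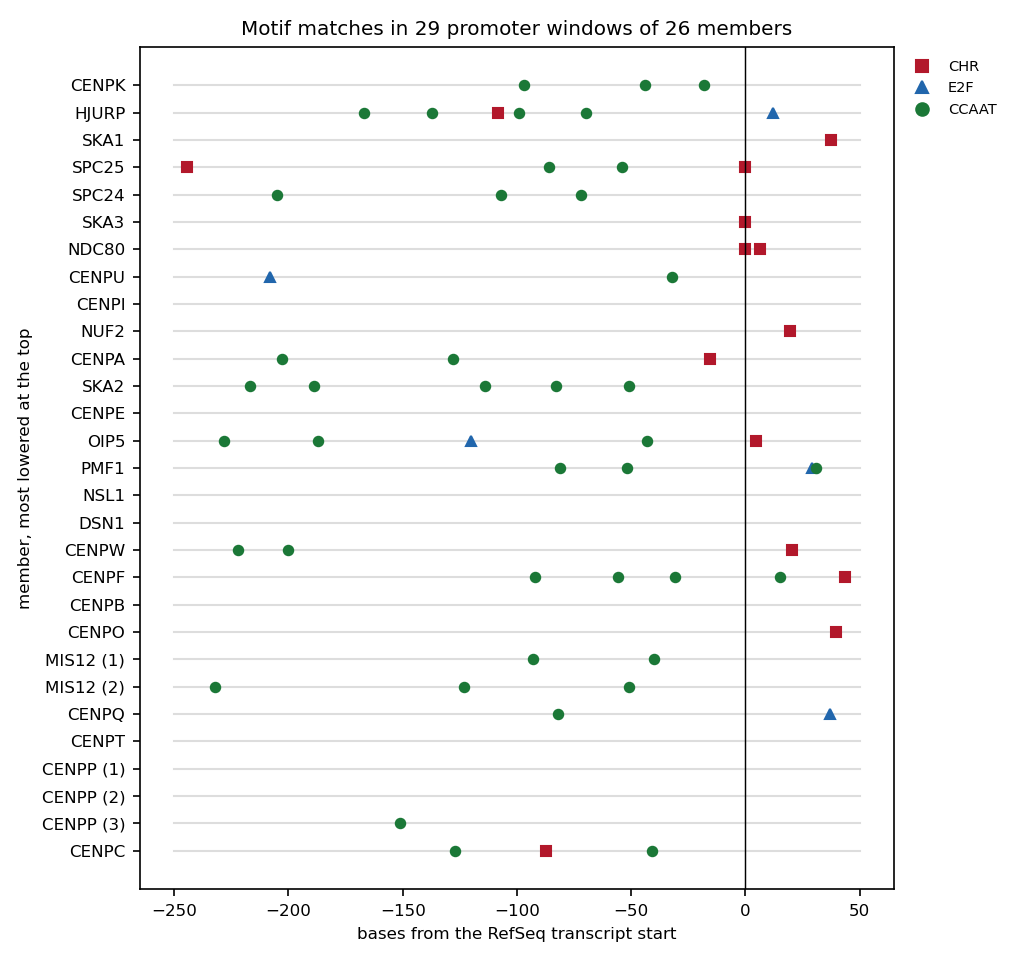
Position of CHR (red squares), E2F-like (blue triangles) and CCAAT (green circles) matches in the 29 promoter windows of 26 members, in bases from the RefSeq transcript start (horizontal axis), with the most lowered member at the top. Of the red squares, those of 10 members lie within 50 bases of the start.

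At the centromeric nucleosome the histone and its reader differed. CENPA, the gene of the histone variant, had 10.3, 9.49 and 4.40 CPM in knockdown replicates 1, 2 and 3, against 21.6, 15.2 and 11.8 CPM in control replicates 1, 2 and 3. The highest knockdown library stayed below the lowest control library, and the change (-1.002, SE 0.33, adjusted p = 0.0996, edgeR) was called with the block only (0.000496). CENPC, which binds the CENP-A nucleosome and the MIS12 complex, had 37.4, 34.6 and 30.0 CPM in knockdown libraries and 40.1, 32.0 and 32.3 CPM in control libraries. Its groups overlapped and it was called in neither fit (-0.03, SE 0.15, adjusted p = 0.922 and 0.871 with the block, edgeR). The log2 ratio of CENPA to CENPC, per kilobase of exon, was 0.26, 0.25 and -0.65 in knockdown libraries and 1.22, 1.04 and 0.66 in control libraries, without overlap.

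CENPB, which binds a short box in alpha-satellite DNA (ENSG00000125817.7, chromosome 20, 3783851 to 3786690, hg38), had 57.3, 63.5 and 61.1 CPM in knockdown libraries and 82.3, 105 and 78.7 CPM in control libraries. The groups were apart, and the fall (-0.55, SE 0.14, adjusted p = 0.0494, edgeR; 0.00242 with the block) was smaller than that of CENPA but measured with less spread. Its call ended when any 1 library was left out (adjusted p up to 0.133).

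Factors that load CENP-A fell as well. HJURP, the CENP-A chaperone (ENSG00000123485.11, chromosome 2, 233833416 to 233854566), had 28.4, 16.7 and 10.5 CPM in knockdown libraries and 71.3, 52.5 and 31.7 CPM in control libraries. Knockdown replicate 1 came close to control replicate 3 without reaching it. The fall was 1.49 on the log2 scale (SE 0.38, adjusted p = 0.0464, edgeR; 2.83e-06 with the block), and the call ended on removing K2, K3, C1 or C2 (adjusted p up to 0.16). Relative to CENPA, HJURP had a log2 ratio per length that averaged 0.23 ± 0.33 in knockdown cells and 0.70 ± 0.19 in control cells (SD, n = 3 each), with overlapping ranges. MIS18A and OIP5, subunits of the licensing complex, averaged 7.70 ± 1.952 and 9.11 ± 3.22 CPM in knockdown cells and 13.7 ± 2.23 and 16.8 ± 5.93 CPM in control cells. Both were called with the block only (log2 fold changes -0.83 and -0.88, block adjusted p = 0.00163 and 0.00144, edgeR). OIP5 shares 38% of its exon bases with OIP5-AS1 on the other strand, which had 39850 reads over all libraries against 2213 for OIP5, and the strand setting of the counting is not given.

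Within the inner network the CENP-HIKM subunits were lower to different degrees. CENPK (ENSG00000123219.12, chromosome 5, 65517766 to 65563171) had 9.42, 9.68 and 6.32 CPM in knockdown libraries and 33.0, 22.5 and 17.2 CPM in control libraries. This was the largest fall of the 31 members, 2.85-fold, with a log2 fold change of -1.51 (SE 0.27, adjusted p = 0.0129, edgeR; up to 0.0479 with 1 library left out). CENPI had 19.49, 15.27 and 9.71 CPM in knockdown libraries and 47.45, 29.87 and 19.47 CPM in control libraries, so that the groups overlapped narrowly. CENPI (-1.12), CENPM (-0.71) and CENPH (-0.62) were called with the block only, at adjusted p of 4.69e-05, 0.00137 and 0.00858 (edgeR). The log2 ratio of CENPK to CENPH was -2.17, -2.15 and -1.73 in knockdown libraries and -1.11, -1.11 and -1.35 in control libraries. The ranges of this ratio did not overlap.

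The CENP-OPQUR subunits, which stabilise the inner kinetochore, also differed from one another. CENPU (ENSG00000151725.11, chromosome 4, 184694618 to 184734133) had 56.4, 52.6 and 33.9 CPM in knockdown libraries and 147, 99.98 and 85.7 CPM in control libraries, with no overlap. It fell by 1.22 on the log2 scale (SE 0.24, adjusted p = 0.0203, edgeR; 1.11e-05 with the block), a call that ended on removing K2 or K3 (up to 0.0706). CENPO was called with the block only (-0.54, 0.00337), and 31.4% of its exon bases are shared with other genes, mostly ADCY3. CENPQ had 19.5, 11.9 and 8.15 CPM in knockdown libraries and 23.5, 10.99 and 10.4 CPM in control libraries, which overlapped. CENPQ (-0.18, SE 0.38) and CENPP (-0.08, SE 0.16) were called in neither fit, and 39.5% of the exon bases of CENPP are shared with other genes, mostly IPPK. The log2 ratio of CENPU to CENPQ was 0.76, 1.37 and 1.29 in knockdown libraries and 1.88, 2.42 and 2.27 in control libraries, without overlap.

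Of CENPL, the partner of CENP-N, and the histone-fold pair CENPT and CENPW, only CENPW was called, and only with the block. CENPL averaged 26.9 ± 7.998 CPM in knockdown cells and 32.8 ± 11.01 CPM in control cells (-0.29, SE 0.28, block adjusted p = 0.0899, edgeR). CENPT, which carries a second link to the NDC80 complex, had 50.4, 38.5 and 36.8 CPM in knockdown libraries and 48.7, 47.5 and 45.4 CPM in control libraries. The highest value of CENPT was in a knockdown library, and it was not called (-0.17, SE 0.15, adjusted p = 0.525, edgeR). CENPW averaged 8.75 ± 3.64 CPM in knockdown cells and 14.0 ± 5.37 CPM in control cells and was called with the block only (-0.68, SE 0.35, block adjusted p = 0.00401). Per length, CENPW relative to CENPT had a log2 ratio that averaged 0.46 ± 0.46 in knockdown cells and 0.99 ± 0.48 in control cells (SD, n = 3 each), with overlapping ranges.

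In the MIS12 complex, which joins the inner to the outer layer, 3 of 4 subunits were lower. PMF1 (ENSG00000160783.19, chromosome 1, 156212993 to 156240042) had 19.1, 14.7 and 20.7 CPM in knockdown libraries and 34.8, 31.4 and 30.8 CPM in control libraries. NSL1 (ENSG00000117697.14, chromosome 1, 212726153 to 212791782) had 45.6, 39.4 and 36.5 CPM in knockdown libraries and 77.0, 59.9 and 66.8 CPM in control libraries. Neither overlapped between groups, and both fell, with log2 fold changes of -0.84 (SE 0.17, adjusted p = 0.02, edgeR) and -0.74 (SE 0.15, adjusted p = 0.0192). The call of PMF1 ended on removing K2, C1 or C3 (up to 0.0769), and that of NSL1 also on removing K3 (up to 0.0884). PMF1 shares 23.3% of its exon bases with the read-through gene PMF1-BGLAP, which had 8 reads over all libraries.

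DSN1 and MIS12 completed this complex. DSN1 had 31.86, 28.5 and 17.1 CPM in knockdown libraries and 56.8, 40.1 and 31.77 CPM in control libraries and was called with the block only (-0.73, SE 0.27, block adjusted p = 0.000699, edgeR). MIS12 itself had 62.1, 55.6 and 49.0 CPM in knockdown libraries and 79.5, 53.1 and 68.4 CPM in control libraries, which overlapped. It was called in neither fit (-0.27, SE 0.17, adjusted p = 0.363 and 0.132 with the block, edgeR). The log2 ratio of NSL1 to MIS12 was -0.82, -0.87 and -0.80 in knockdown libraries and -0.42, -0.20 and -0.41 in control libraries, without overlap. That of DSN1 to MIS12 was -0.76, -0.76 and -1.31 in knockdown libraries and -0.28, -0.20 and -0.90 in control libraries, which overlapped. CASC5 (KNL1), the scaffold for checkpoint proteins, averaged 49.4 ± 21.4 CPM in knockdown cells and 108 ± 37.5 CPM in control cells and was called with the block only (-1.13, SE 0.34, block adjusted p = 8.38e-06).

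All 4 subunits of the NDC80 complex, the main microtubule coupler, were lower in every knockdown library than in any control library. SPC24 (ENSG00000161888.11, chromosome 19, 11131520 to 11155808) had 53.4, 41.5 and 28.1 CPM in knockdown libraries and 136, 102 and 68.5 CPM in control libraries. SPC25 (ENSG00000152253.8, chromosome 2, 168834132 to 168913371) had 6.10, 4.35 and 2.75 CPM in knockdown libraries and 15.1, 12.2 and 8.14 CPM in control libraries. These inner subunits fell, with log2 fold changes of -1.32 (SE 0.28, adjusted p = 0.0261, edgeR) for SPC24 and -1.43 (SE 0.32, adjusted p = 0.0308) for SPC25. SPC24 was no longer called after removing K2, K3 or C1 (up to 0.0996), nor SPC25 after removing any of these or C2 (up to 0.115).

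NDC80 and NUF2, the subunits that touch the microtubule, were called with the block only. NDC80 had 42.8, 29.8 and 15.3 CPM in knockdown libraries and 99.95, 64.3 and 44.3 CPM in control libraries (-1.25, SE 0.38, adjusted p = 0.0791 and 8.38e-06 with the block, edgeR). NUF2 had 23.8, 20.6 and 10.03 CPM in knockdown libraries and 50.8, 35.8 and 29.03 CPM in control libraries (-1.09, SE 0.32, adjusted p = 0.0709 and 0.000101 with the block). The ratios between subunits of this complex overlapped between groups. The log2 ratio of SPC24 to NDC80 averaged 0.90 ± 0.29 in knockdown cells and 0.92 ± 0.12 in control cells, that of NUF2 to NDC80 -0.57 ± 0.16 and -0.71 ± 0.19, and that of SPC25 to SPC24 -2.62 ± 0.11 and -2.48 ± 0.06, in the same order (SD, n = 3 each).

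**Figure D3:**
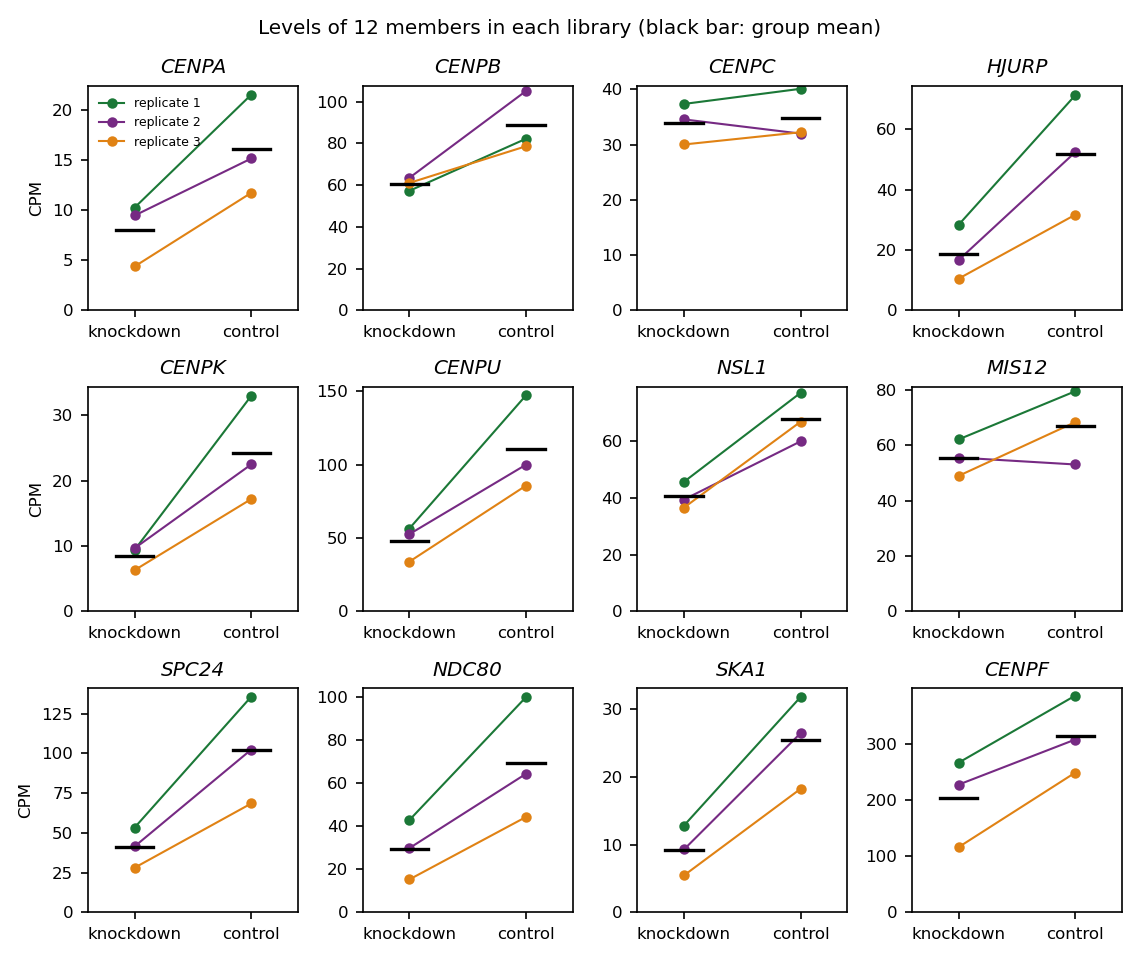
CPM of 12 members in each library (vertical axes from 0, knockdown left and control right), with lines joining libraries of the same replicate number and black bars for group means. SPC24, NDC80 and SKA1 lie lower in all 3 knockdown libraries than in any control library, while CENPC and MIS12 overlap between groups.

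The SKA complex, which tracks microtubule ends with NDC80, was lower as a whole, with no overlap for any of its 3 subunits. SKA1 (ENSG00000154839.9, chromosome 18, 50374995 to 50394173) had 12.8, 9.27 and 5.45 CPM in knockdown libraries and 31.7, 26.4 and 18.2 CPM in control libraries. SKA2 (ENSG00000182628.12, chromosome 17, 59109951 to 59155269) had 54.4, 34.8 and 32.3 CPM in knockdown libraries and 105, 66.7 and 68.7 CPM in control libraries. They fell, with log2 fold changes of -1.47 (SE 0.31, adjusted p = 0.0252, edgeR) and -0.99 (SE 0.24, adjusted p = 0.0422). Removing K2, K3 or C1 ended both calls, and removing C3 that of SKA2 (adjusted p up to 0.0971 for SKA1 and 0.156 for SKA2). SKA3 averaged 6.64 ± 2.99 CPM in knockdown cells and 16.4 ± 4.98 CPM in control cells and was called with the block only (-1.31, SE 0.35, block adjusted p = 3.84e-05). The log2 ratio of SKA3 to SKA1 was higher in knockdown cells, at -0.45, -0.56 and -0.60 in knockdown libraries and -0.68, -0.61 and -0.80 in control libraries, by a small margin without overlap. That of SKA1 to SKA2 averaged -2.09 ± 0.34 in knockdown cells and -1.57 ± 0.30 in control cells (SD, n = 3 each), with overlapping ranges.

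The corona proteins CENPE, a kinesin that moves chromosomes, and CENPF, a large coiled-coil protein, were called with the block only. CENPE had 65.7, 55.4 and 31.3 CPM in knockdown libraries and 123, 96.7 and 69.9 CPM in control libraries, without overlap (-0.93, SE 0.28, block adjusted p = 3.79e-05, edgeR). CENPF, the most abundant member in CPM, had 266, 227 and 116 CPM in knockdown libraries and 385, 307 and 249 CPM in control libraries. Knockdown replicate 1 was above control replicate 3 for CENPF, although each knockdown library was below the control library of its own number (-0.63, SE 0.28, block adjusted p = 0.00188).

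Set side by side, the complexes differed in their median log2 fold change. The medians were -1.31 for SKA, -1.28 for NDC80, -0.91 for CENP-HIKM, -0.88 for CENP-A deposition, -0.78 for the corona, -0.74 for MIS12, -0.55 for the centromeric nucleosome and DNA binding, -0.43 for CENP-TWSX and -0.36 for CENP-OPQUR. These groups hold 2 to 4 genes each, the genes share libraries, and the differences between complexes were not tested.

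Levels per length ranged widely in both groups. In control cells the highest levels, in CPM per kilobase of exon (RPKM), were 37.6 ± 10.9 for CENPU, 36.02 ± 11.8 for SPC24 and 31.2 ± 5.06 for CENPB, which did not differ beyond their spread. In knockdown cells CENPB was highest at 21.3 ± 1.101 RPKM, followed by MIS12 at 17.6 ± 2.08, CENPF at 17.4 ± 6.66 and CENPU at 16.1 ± 4.09 RPKM, the last 3 within each other's spread. The lowest levels in knockdown cells were 1.97 ± 0.43 RPKM for CENPK, 2.18 ± 0.98 for SKA3 and 2.39 ± 0.91 for SPC25, again within their spread. CENPC was lowest in control cells, at 4.04 ± 0.54 RPKM, and had 3.95 ± 0.43 RPKM in knockdown cells. Across the 31 members, level and log2 fold change were weakly related (Pearson r = 0.25, Spearman rho = 0.22, as a description over genes that share the same libraries).

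Members varied strongly within a group, and this variation followed the replicate number. Control replicate 1 held the highest value of 28 members and knockdown replicate 3 the lowest of 29. The SD within groups had a median of 0.48 on the log2 scale over members, against 0.26 over all tested genes. When each knockdown library was instead set against the control library of its number, the SD over the 3 differences had a median of 0.21 for members and 0.25 for all genes. The median difference over members was -0.86, -0.73 and -1.07 for replicates 1, 2 and 3, and 30, 28 and 31 of the 31 members were lower. Of all 21101 tested genes, 10341, 10952 and 10625 were lower in the same order. For SPC24 the differences were -1.35, -1.30 and -1.28, an SD of 0.03, although its SD within groups was 0.48. Members with larger falls tended to have more spread within groups (Pearson r = -0.56, Spearman rho = -0.52 over 31 members, as a description).

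**Figure D4:**
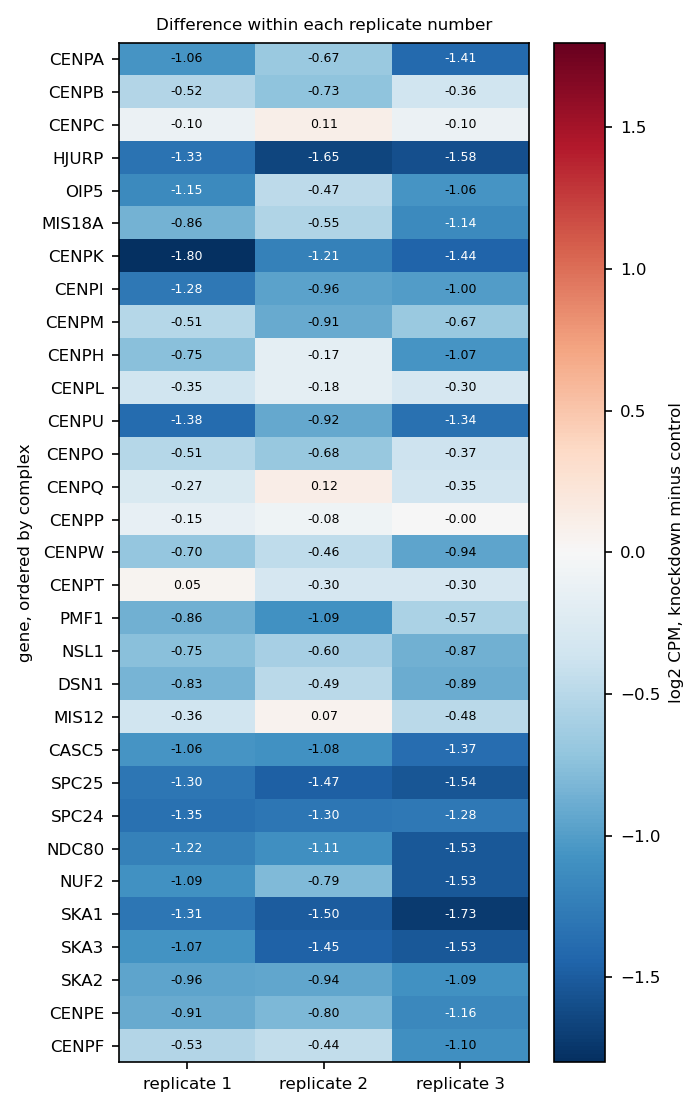
Difference in log2 CPM, knockdown minus control, between libraries of the same replicate number (columns) for each of the 31 members (rows, by complex), coloured from blue (lower in knockdown) to red (higher) with the value in each cell. Of 31 members, 30, 28 and 31 are lower in replicates 1, 2 and 3, against 10341, 10952 and 10625 of all 21101 tested genes.

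Spread within groups was smallest for CENPB, NSL1, CENPC, CENPT, PMF1 and CENPP. Their SDs were 0.17, 0.17, 0.17, 0.18, 0.20 and 0.20 on the log2 scale, against 0.67 for NDC80 and 0.65 for HJURP. CENPB differed between its 3 knockdown libraries by only 0.15 on the log2 scale, where NDC80 differed by 1.48.

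Further genes of the same structure were also lower in part. Of 12 listed centromere and kinetochore genes outside the 31, edgeR called 2 lower and 0 higher, and with the block 7 lower and 0 higher. Over all tested genes 4.88% were called lower without the block and 14.9% with it. The median log2 fold change of the 12 was -0.54. CENPN, the partner of CENPL, averaged 84.6 ± 33.8 CPM in knockdown cells and 189 ± 22.8 CPM in control cells (-1.16, adjusted p = 0.0291, edgeR). KNTC1, a subunit of the corona complex that recruits dynein, averaged 68.3 ± 21.4 CPM in knockdown cells and 155 ± 44.0 CPM in control cells (-1.19, adjusted p = 0.0318). Its partner ZWILCH (-0.91), the adaptor SPDL1 (-0.87), the receptor ZWINT (-1.27) and ZW10 (-0.35) were among those called with the block only. CENPS, CENPX, CENPV, CENPBD1 and ITGB3BP (CENP-R) were called in neither fit, with log2 fold changes of -0.52, -0.29, -0.32, -0.22 and -0.17. CENPBD1, named for a DNA-binding domain like that of CENP-B, is counted in the list but is not an established kinetochore gene. Of the calls of CENPN and KNTC1 none was left after removing K3 or C2, and removing K2, C1 or C3 gave 1 call in the list.

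Most genes of the spindle checkpoint and of the cell cycle in general were lower as well. The checkpoint list holds 8 genes, of which SGO1 and SGO2, the shugoshins, are not core checkpoint genes. Among these 8 edgeR called 0, limma-voom called 0, and DESeq2 called 4 lower. In edgeR 6 of them had an unadjusted p under 0.05, as had 5219 of all 21101 tested genes. DESeq2 called 2338 genes over the whole table, in either direction. With the block 7 were lower. BUB1, BUB1B and SGO1 had log2 fold changes of -1.02, -1.03 and -1.02. MAD1L1, named after its value was seen, was the 1 checkpoint gene above 0 (0.16, block adjusted p = 0.293, edgeR). Among 20 G2/M genes 4 were lower and with the block 20, with a median of -1.01, and MKI67 (-1.57), PLK1 (-1.27) and KIF20A (-1.36) had the smallest adjusted p. Among 16 G1/S genes 7 were lower and with the block 16, with a median of -1.02, led by RRM2 (-2.10), CDC45 (-1.66) and E2F1 (-1.51). Beside the counts of these lists, 4.88% of all tested genes were called lower without the block and 14.9% with it.

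The level of these lists in each library ran closely with that of the members. Set against each gene's mean over the 6 libraries, the median over members was -0.04, -0.24 and -1.05 on the log2 scale in knockdown replicates 1, 2 and 3 and 0.87, 0.45 and 0.09 in control replicates 1, 2 and 3. For the G2/M genes it was 0.03, -0.47 and -1.17 in knockdown libraries and 0.93, 0.55 and 0.06 in control libraries. The members minus the G2/M genes then gave -0.07, 0.23 and 0.12 in knockdown libraries and -0.06, -0.11 and 0.03 in control libraries, which overlapped. How far the share of cycling cells takes part in the results was not tested.

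**Figure D5:**
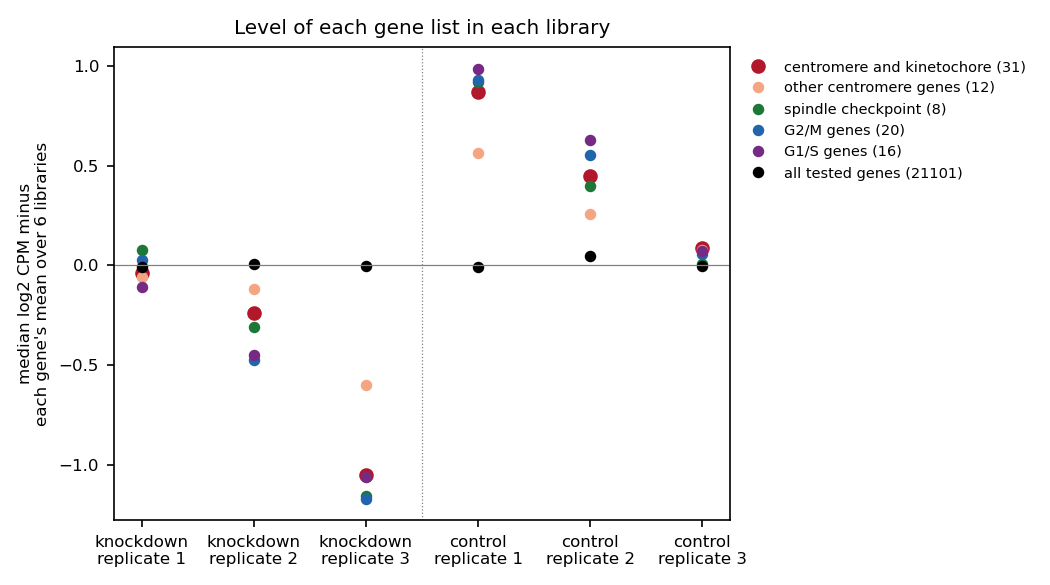
Median level of each gene list in each library (vertical axis, log2 CPM minus each gene's mean over the 6 libraries; knockdown libraries left, control libraries right). The members (large red points) lie close to the G2/M, G1/S and checkpoint genes, at -1.05 in knockdown replicate 3 and 0.87 in control replicate 1, while all tested genes stay between -0.01 and 0.05.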

How the data were processed

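The deposited table holds unnormalised counts of reads for each gene in each of the 6 libraries. The submitters' processing notes name bcl2fastq, STAR 2.5, featureCounts, Subread 1.6.5, edgeR 3.20.8 and the build hg38, without roles. Strand setting and annotation release are not given in the sources used here. The deposited exon length per gene, an other value given per the file headers, set the RPKM. That length covers all annotated exons, so levels per length of genes with many rare exons are understated.

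Counts were tested here with edgeR 4.0.16 in R 4.3.3: TMM scaling, filterByExpr by group, and a two-sided quasi-likelihood F test of knockdown against control, with Benjamini-Hochberg adjustment over 21101 tested genes. SEs are the fold change divided by the root of F. CPM used TMM-scaled totals. Log2 CPM for differences within replicate numbers had a prior count of 2. The alternatives were RLE and upper quartile scaling, no filter, DESeq2 1.42.0, limma-voom (limma 3.58.1), a replicate block, and leaving out each library. The edgeR fits with and without the block were first run on simulated counts. That check required only that set fold changes be recovered, and no rate of false calls is given from it.

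The pairing rests on the data: deviations from the group mean correlated at 0.554, 0.381 and 0.358 for libraries with the same number, and at -0.39 to 0.06 for others. Deviations of a gene sum to 0 within a group, so low values for the others follow in part from positive ones for the same number. They are no separate evidence for the pairing. The labels do not say what a number shares, and p-values measure only the spread between these libraries. No 2 libraries had identical counts. For ratios, an exact permutation of 3 against 3 libraries cannot give a two-sided p under 0.1, so none is given.

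The members, gene lists, ratios and motifs were chosen with earlier results of these data known. Named were all members, the target WDR77 and PRMT5, genes whose exons overlap a member, the other centromere genes except 1 that is not reported here, and the 3 genes with the smallest adjusted p in the checkpoint, G2/M and G1/S lists. COL1A1, KRT5 and MAD1L1 fall outside this rule and were chosen after their values were seen.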

Additional observations from a re-analysis of the deposited data

How the results depend on the processing

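The median log2 fold change of the 31 members stayed between -0.985 and -0.65 when 1 library was left out, and between -0.85 and -0.71 under the other settings, replicate block included. It was -0.65 without control replicate 1. Upper quartile scaling moved the median of all tested genes to 0.12. The 10 members called lower became 25 with no filter beyond 1 read, 19 with DESeq2 and 25 with the replicate block, and the cause was not tested. Calls over the whole table also rose under these settings, as given below. With the block 14.9% of all tested genes were called lower. For no filter and DESeq2 no share is given, as the numbers of genes tested are not stated. Members called lower ranged from 1 to 12 with 1 library left out. They were 10 with RLE scaling, 7 with upper quartile scaling and 10 with limma-voom, where 9 of the 10 were the same genes. All 10 were also called with the block, DESeq2, RLE scaling and no filter. The count of members called higher was 0 under each of these settings.

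The 2 other centromere genes called lower became 6 with no filter, 4 with DESeq2 and 7 with the replicate block, and ranged from 0 to 3 with 1 library left out. The 1603 genes called over the whole table became 3148 with no filter, 2338 with DESeq2 and 5506 with the replicate block, and ranged from 497 to 1423 with 1 library left out. Changes of sign were seen for 4 members near 0, none of them called in any setting. With upper quartile scaling CENPC had 0.088 and CENPP 0.039. With 1 library left out, CENPC ranged from -0.11 to 0.12, CENPL from -0.53 to 0.053, CENPP from -0.21 to 0.038 and CENPQ from -0.58 to 0.33. The positive values arose on leaving out knockdown replicate 3 (CENPC 0.046, CENPP 0.0052, CENPQ 0.065) or the first control library. Depth limits SPC25, SKA3 and CENPA most, with 60, 81 and 96 reads in knockdown replicate 3.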

Other observations

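Of the 31 members, 12 share exon bases with another annotated gene, and 4 share at least 20% of them (CENPO, CENPP, OIP5 and PMF1). CENPT shares 19.6% with TSNAXIP1, THAP11 and NUTF2 on the other strand, CENPU 11.7% with PRIMPOL, MIS12 9.53% with DERL2 and CENPA 6.96% with SLC35F6. How reads in these stretches were assigned is not given in the sources used here, and their part in the changes was not tested.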
